A study of Mus musculus with 2 samples.

Results

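Voltage-gated sodium and calcium channels were followed through all 40 protein-coding mouse genes whose symbols name a sodium channel subunit (Scn genes for alpha and beta subunits, 14 genes) or a calcium channel subunit (Cacna1, Cacna2d, Cacnb and Cacng genes, 26 genes). They are 40 of 21474 protein-coding genes in the deposited tables, and all were matched by Ensembl identifier in both libraries. The rule that picks them uses the symbols alone. The study is a single group: total RNA longer than 200 nucleotides from healthy neural tube of the B6NCrl mouse strain at embryonic day 12.5, both sexes pooled, sequenced as 2 libraries from 10 ng of RNA each. Replicate 1 was a pool of 120 embryos and replicate 2 a pool of 88, and both carry the same donor identifier. With 1 group there is no contrast between conditions and no p-value, and the spread between the libraries is that of 2 dissection pools, which may be technical in part. Because the tissue is a mixture, fewer cells of a type and less RNA per cell cannot be told apart.

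These channels open when the membrane depolarises. A sodium channel is 1 large alpha subunit that forms the pore, with small beta subunits that adjust its gating and anchor it at the cell surface, and it carries the rising phase of the action potential. The pore of a calcium channel is its alpha1 subunit. In many of these channels, though not all, an auxiliary cytoplasmic beta and an extracellular alpha2delta subunit bring the pore to the membrane. Calcium entering through the pore drives transmitter release, gene regulation and, in embryonic neurons, spontaneous electrical activity. At this stage the neural tube holds both dividing progenitors and young neurons that are beginning to extend axons. The library labels name neural tube, and 10 of 10 neuronal and 8 of 8 progenitor markers were detected, against 62.1% of all protein-coding genes. Detected means 1 TPM or more in both libraries, TPM being the length-corrected transcript abundance. Markers of sensory ganglion (8 of 8), neural crest glia (5 of 5) and skeletal muscle (9 of 10) were detected as well. Detection alone therefore does not single out neural tube.

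Several sodium channel genes carry, side by side, 2 versions of a coding exon for part of the first voltage-sensing domain. A transcript uses one or the other, and the upstream copy is commonly called neonatal and the downstream copy adult. The downstream copies of 3 genes are shown, because the results on transcript forms turn on the choice between copies and because these are alike between genes. Sequences are from GENCODE M21 transcripts on GRCm38, 5′ to 3′ in the sense of the gene, each 92 nucleotides long, and capitals mark the bases at which a copy differs from the upstream copy of its own gene.
Scn9a downstream copy, chr2:66563336-66563427, minus strand: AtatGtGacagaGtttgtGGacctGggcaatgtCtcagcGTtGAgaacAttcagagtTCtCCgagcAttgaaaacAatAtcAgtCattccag
Scn3a downstream copy, chr2:65525695-65525786, minus strand: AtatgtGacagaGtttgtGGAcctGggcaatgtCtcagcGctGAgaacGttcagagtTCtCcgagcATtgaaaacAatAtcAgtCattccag
Scn8a downstream copy, chr15:100959603-100959694, plus strand: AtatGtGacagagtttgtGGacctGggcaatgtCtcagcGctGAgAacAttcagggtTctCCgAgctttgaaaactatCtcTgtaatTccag
The copies within a gene differed at 22 of 92 bases in Scn9a, 21 in Scn3a and 19 in Scn8a. Between genes the downstream copies were closer than that. Those of Scn3a and Scn9a differed at 2 bases, and that of Scn8a differed from each of them at 7. A read that lies inside these exons can therefore be hard to assign between Scn3a and Scn9a, and the division of such reads in the deposited tables is an estimate.

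Of the 40 members, 32 reached 1 TPM in both libraries (80%), against 62.1% of all protein-coding genes. A further 7 were under 1 TPM in both, and Cacna1d, at 0.89 and 1.12 TPM, reached it in replicate 2. The levels were modest: the median member stood at 4.02 TPM in replicate 1 and 4.05 TPM in replicate 2, and the median protein-coding gene at 5.50 and 5.66 TPM. In sum the members held 404 and 432 TPM in replicates 1 and 2, or 0.0404% and 0.0432% of all TPM. Their share of gene counts, which are not corrected for length, was 0.102% and 0.110%. Sodium channel genes made up 31.7% ± 1.7 (SD, n = 2) of that TPM. TPM is corrected for transcript length and is the scale used below to compare genes, while counts are used to compare the 2 libraries for 1 gene.

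**Figure D1:**
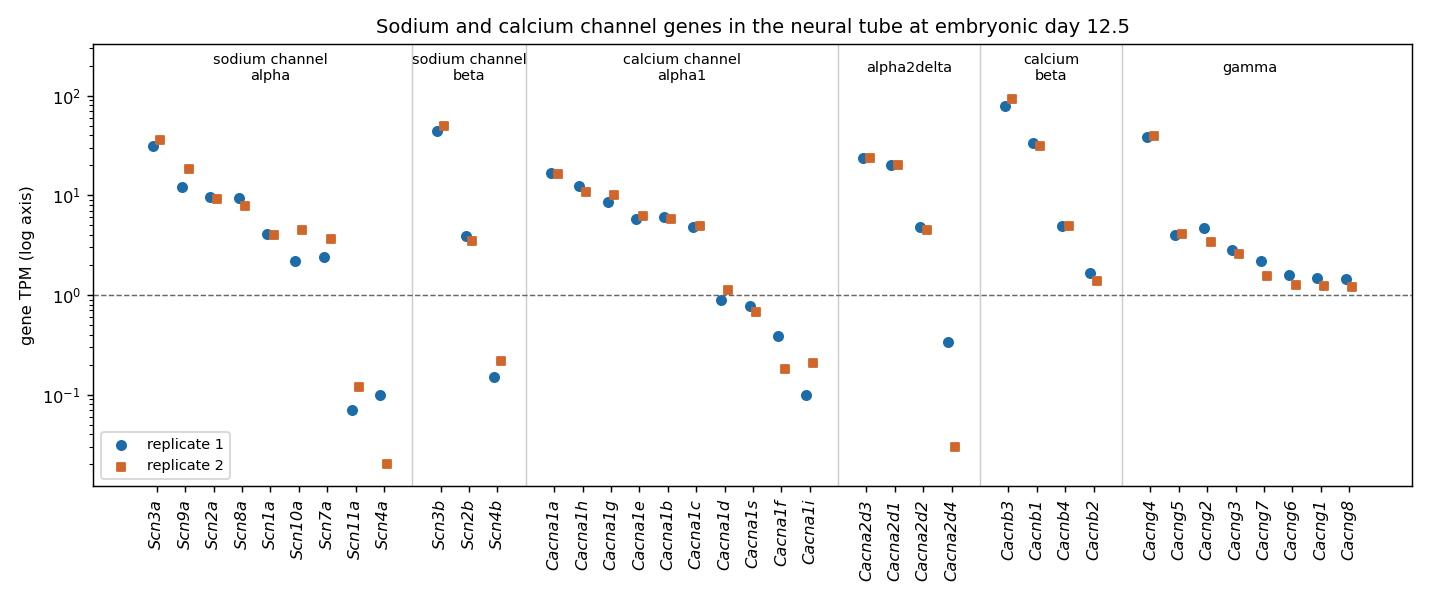
Gene TPM (log axis) of 38 channel genes in replicate 1 (circles) and replicate 2 (squares), ordered by mean within each subunit class, with a dashed line at 1 TPM. Cacnb3, at 79.0 and 92.6 TPM, is the highest of all, the calcium channel alpha1 genes step down gradually, and the 8 genes below the line in at least 1 library lie among the sodium channel alpha, sodium channel beta, calcium channel alpha1 and alpha2delta genes.

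Among the 10 sodium channel alpha genes, Scn3a was highest. It encodes Nav1.3, known as the main embryonic brain sodium channel, and stood at 31.6 TPM in replicate 1 and 36.3 TPM in replicate 2. That was 42.8% ± 0.7 (SD, n = 2) of the TPM of all alpha genes. Scn9a (Nav1.7, best known from sensory and sympathetic neurons) followed with 12.2 and 18.3 TPM, then Scn2a (Nav1.2, of axons of young central neurons) with 9.61 and 9.23 TPM. Scn8a (Nav1.6, the channel of mature axon initial segments and nodes) was listed at 9.41 and 7.88 TPM, and its deposited interval overlapped that of Scn2a in each library. Scn1a (Nav1.1, of inhibitory and some motor neurons) was at 4.07 and 4.00 TPM. Thus Scn3a was above every other alpha gene in both libraries, Scn2a and Scn8a could not be ordered, and Scn1a was below both.

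The lower alpha genes are known from peripheral tissue. Scn10a (Nav1.8, of nociceptors) was at 2.21 and 4.49 TPM. Scn7a (the atypical Nax, which senses extracellular sodium) was at 2.38 and 3.62 TPM. Near the detection limit were Scn11a (Nav1.9, of nociceptors), with 8 and 14 expected counts, and Scn4a (Nav1.4, of skeletal muscle), with 13 and 3. The 3 nociceptor channels thus spanned a wide range, from 15.2 TPM on average for Scn9a to 0.095 TPM for Scn11a.

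Several alpha genes lie side by side, and level did not follow position. On chromosome 2 (GRCm38), in order, stand Scn3a (chr2:65457118-65567627), Scn2a (chr2:65620771-65767447), Scn1a (chr2:66270778-66440840), Scn9a (chr2:66480080-66634962) and Scn7a (chr2:66673425-66784914). Scn1a, the middle gene, was at 4.04 TPM on average between Scn2a at 9.42 and Scn9a at 15.2. On chromosome 9, Scn10a (chr9:119608456-119719322) and Scn11a (chr9:119753759-119825456) are neighbours, and Scn10a was the higher in both libraries.

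**Figure D2:**
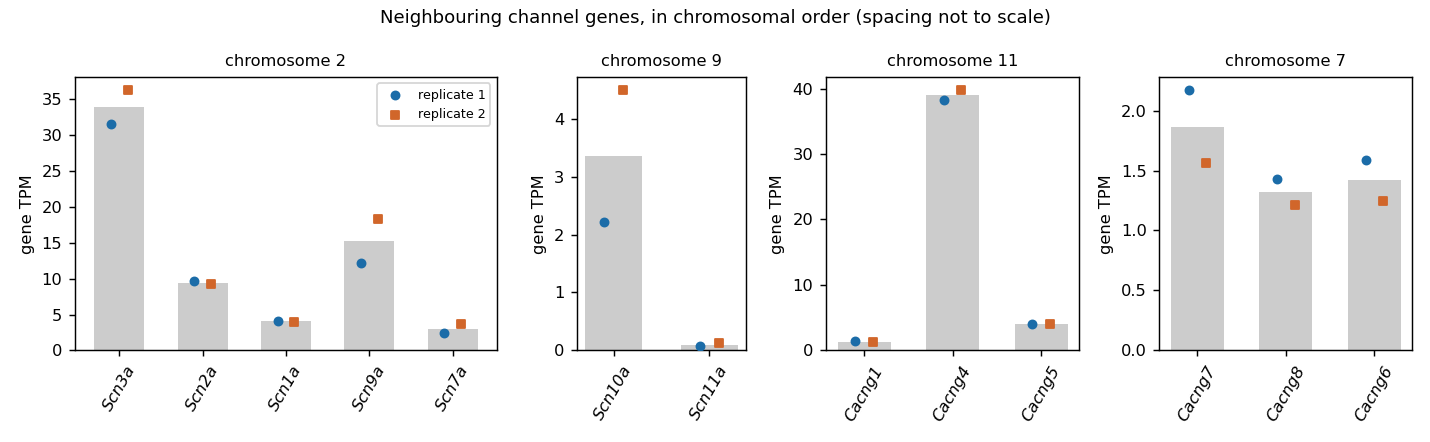
Gene TPM of neighbouring channel genes in chromosomal order (bars, mean of 2 libraries; circle, replicate 1; square, replicate 2; each panel has its own vertical scale, and spacing is not to scale). Cacng4, at 38.3 and 39.7 TPM, stands between Cacng1 and Cacng5, which are each under 5 TPM, and Scn3a leads the chromosome 2 panel.

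Of the 4 beta subunit genes, Scn3b was the dominant one. It stood at 43.8 and 50.2 TPM, or 88.4% ± 1.2 (SD, n = 2) of the beta TPM. Scn3b is non-covalently bound to the alpha subunit, and its leading coding forms, Scn3b-201 and Scn3b-203, both have a reading frame of 645 nucleotides. Scn2b, which is disulphide-linked and known from the maturing brain, was at 3.95 and 3.46 TPM, 7.03% ± 1.24 (SD, n = 2) of the class. Scn4b, known for resurgent current in adult neurons, was under the limit at 0.15 and 0.22 TPM. Scn3b was therefore far above each other beta gene in both libraries, with no overlap of the deposited intervals.

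The level of a channel gene depends on which of its annotated transcripts are counted. The gene TPM sums every transcript, including short fragments and transcripts with retained introns, and a few reads over a short transcript give a high TPM. A full-length coding form was taken here as a complete coding transcript whose reading frame is at least 80% of the longest one of its gene. Full-length forms held 62.4% and 61.1% of the Scn3a TPM, and 28.3% and 44.8% of the Scn8a TPM. For Scn8a, 1 short form of 1072 nucleotides with a reading frame of 306 (Scn8a-202) was given 6.75 and 4.35 TPM from 131 and 87.3 counts, and its full-length forms had 2.66 and 3.53 TPM. Counted by full-length forms, Scn3a still led the alpha genes with 19.7 and 22.1 TPM, Scn9a had 8.47 and 12.7 TPM and Scn2a 6.08 and 6.55 TPM, and Scn8a was below Scn2a in both libraries.

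**Figure D3:**
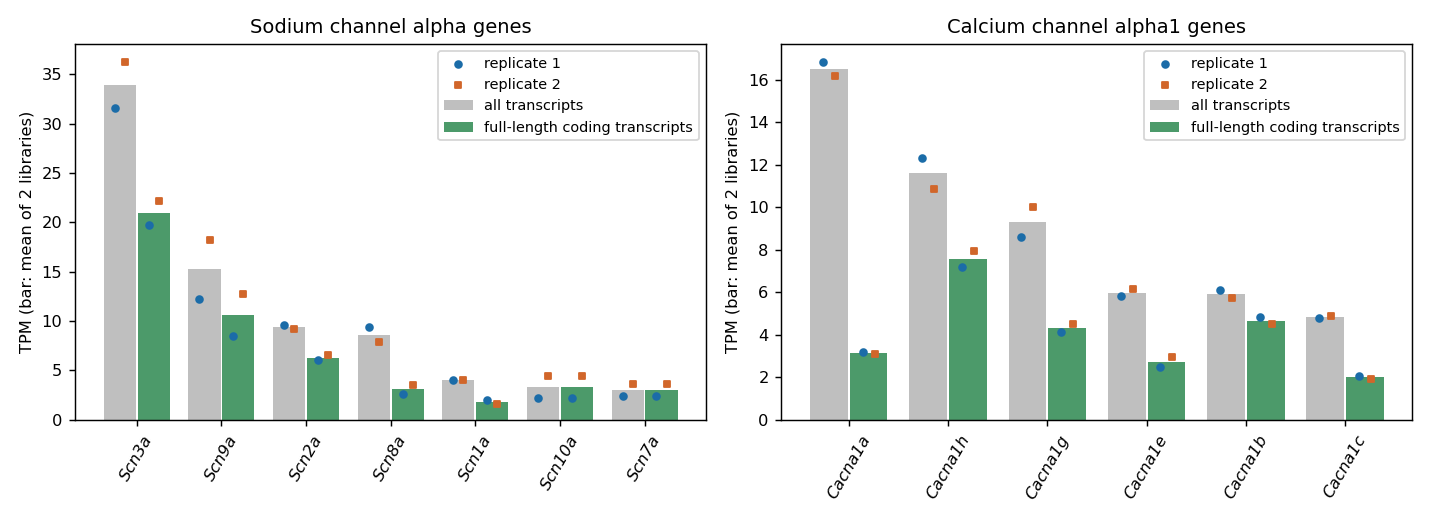
TPM of sodium channel alpha genes (7 genes, left) and calcium channel alpha1 genes (6 genes, right) detected in both libraries, summed over all transcripts (grey bars) or over full-length coding transcripts (green bars), as the mean of 2 libraries with each library as a point. Cacna1a has the tallest grey bar of the calcium channel genes, and Cacna1h, at 7.17 and 7.94 TPM, the tallest green bar.

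The 2 exon copies were divided unevenly in Scn9a, and less so in Scn8a. In Scn9a, full-length forms with the upstream copy held 83.6% and 84.6% of the TPM of full-length forms, from 1307 and 2067 counts against 204 and 299 for the downstream copy. In Scn8a the upstream copy held 74.1% of the TPM in replicate 1 and 52.1% in replicate 2, from 439 and 425 counts, while the downstream copy had 153 and 388 counts. The upstream copy was thus the larger share for Scn9a in both libraries and for Scn8a in replicate 1. In replicate 2 the deposited intervals of the main Scn8a forms, 1.05 to 2.60 TPM for Scn8a-201 and 0.59 to 2.22 TPM for Scn8a-205, overlapped, and the copies could not be ordered. The forms also differ elsewhere (by 61 nucleotides between the leading Scn8a forms and 2345 in Scn9a), so reads outside the exon entered the division. Inside it, the upstream copies of Scn3a and Scn9a differed at 4 of 92 bases. The Scn9a share therefore also depends on how such reads were assigned between the 2 genes.

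Scn3a could not be read in the same way. Every full-length Scn3a form in the annotation holds the downstream copy, and the upstream copy stands only in a partial form of 365 nucleotides (Scn3a-203). That partial form was given 11.6 and 13.7 TPM, 36.6% and 37.9% of the TPM of the gene, from 61.3 and 75.5 counts. It has no full-length counterpart. Among Scn3a forms, reads from a whole Scn3a transcript with the upstream copy can therefore be placed at that exon only in Scn3a-203. The size of the upstream share in whole Scn3a transcripts was not measured here.

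Among the 10 calcium channel alpha1 genes the order turned on the same point. Cacna1a (Cav2.1, the P/Q-type channel of transmitter release) was the highest by gene TPM, at 16.8 and 16.2, or 29.3% ± 0.6 (SD, n = 2) of the class, although its deposited interval overlapped that of Cacna1h in each library. Its full-length form had 3.19 and 3.09 TPM, 18.9% and 19.1% of the gene's TPM but 497 and 499 of its 752 and 741 counts. The rest lay in short transcripts with no reading frame, such as Cacna1a-206, a retained-intron transcript of 1150 nucleotides with 3.17 and 2.75 TPM from 66.2 and 59.8 counts. An antisense gene, Gm16183, overlaps 435 nucleotides of Cacna1a exons and had 68.2 and 89.1 counts, and no source used here says whether the counting was by strand, so reads of the 2 genes cannot be told apart there. By full-length forms Cacna1a was 12.1% ± 0.7 (SD, n = 2) of the class.

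Cacna1h (Cav3.2, a T-type channel that opens near rest) was at 12.3 and 10.9 TPM by gene and 7.17 and 7.94 TPM by full-length forms, where it was the highest of the class with 29.1% ± 1.0 (SD, n = 2). Cacna1g (Cav3.1, also T-type) was at 8.60 and 10.0 TPM by gene and 4.15 and 4.53 by full-length forms. Cacna1b (Cav2.2, the N-type channel of young synapses) was at 6.12 and 5.75 TPM, of which 4.82 and 4.50 lay in full-length forms. Cacna1e (Cav2.3, R-type) was at 5.81 and 6.17 TPM, with 2.47 and 2.96 in full-length forms. By gene TPM Cacna1e and Cacna1b could not be ordered, while by full-length forms Cacna1b was above Cacna1e in both libraries. In sum the P/Q-, N- and R-type genes held 50.5% ± 0.5 (SD, n = 2) of alpha1 TPM and the T-type genes 37.4% ± 0.4, whereas by full-length TPM they held 40.6% ± 1.4 and 46.2% ± 1.3. By counts of full-length forms, which are not corrected for length, the former were again the larger part, with 46.9% and 45.7% in replicates 1 and 2 against 40.2% and 41.7%.

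L-type genes were the smaller part, 12.1% ± 0.1 (SD, n = 2) of alpha1 TPM and 13.2% ± 0.1 of full-length TPM. Cacna1c (Cav1.2, of heart, smooth muscle and neurons) was at 4.78 and 4.87 TPM, with 2.07 and 1.94 in full-length forms. Cacna1d (Cav1.3, a pacemaking channel of neurons and endocrine cells) was at 0.89 and 1.12 TPM, all of it in full-length forms. Cacna1s (Cav1.1, of skeletal muscle) was at 0.77 and 0.68 TPM from 58.6 and 60 counts, and Cacna1f (Cav1.4, of photoreceptors) had 7 and 2 counts. Photoreceptor markers gave 0 of 4 detected, with Crx and Rcvrn at 0 counts in both libraries. Cacna1i (Cav3.3, the T-type channel of thalamus) had 19 and 17 counts. So 3 alpha1 genes stayed under 1 TPM in both libraries, and these are known from muscle, retina and later brain.

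Both L-type genes with a pair of alternative exons of 104 nucleotides used both copies. The upstream copy held 38.6% and 36.1% of the full-length TPM of Cacna1c, from 207 and 190 counts, and 43.8% and 36.6% of that of Cacna1d, from 69.4 and 75.2 counts. The copies could not be ordered in either gene, because the deposited intervals of the leading forms overlapped in each library. For Cacna1d they were 0.11 to 0.68 TPM for the upstream form and 0.16 to 0.77 TPM for the downstream form in replicate 1. The Cacna1d forms also differ by 754 other nucleotides, and their deposited lengths are not those of M21. By counts the upstream copy of Cacna1c had 53.0% and 50.8%, and its leading form is 13162 nucleotides long against 7338. The leading Cacna1c forms differ by 7556 other nucleotides, so the share is not that of the exon alone.

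Of the 4 alpha2delta genes, which encode the extracellular subunit (gabapentin binds the Cacna2d1 and Cacna2d2 products), a pair was high. Cacna2d3 was at 23.5 and 23.6 TPM, all in 1 transcript, and Cacna2d1 at 20.3 and 20.1 TPM. By counts the order was the other way, with 2599 and 2835 for Cacna2d1 against 1682 and 1753 for Cacna2d3. The deposited lengths were 7436 nucleotides for the leading Cacna2d1 form and 3695 for Cacna2d3. Cacna2d2 was at 4.79 and 4.48 TPM. Cacna2d4, known from retina, had 12 and 4 counts. The first pair thus stood well above Cacna2d2 in both libraries, and its internal order depends on the transcript length used.

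Cacna2d1 has a short cassette exon that is included or skipped, shown because its use differed between the libraries in a gene with 2599 and 2835 counts.
Cacna2d1 cassette exon, chr5:16341990-16342010, plus strand: caaaaaagggaaaaatgaagg
Forms with the exon held 74.7% of Cacna2d1 TPM in replicate 1 and 90.5% in replicate 2, or 15.2 and 18.2 TPM, and forms without it 5.15 and 1.90 TPM. The exon form was in the majority in both libraries, and the level of the skipped form was 2.71 times as high in replicate 1 as in replicate 2. The deposited intervals of the skipped form, Cacna2d1-202, overlapped between the libraries, at 2.32 to 8.08 TPM and 0.21 to 3.48 TPM, so this difference is not firm. The deposited lengths of the main form with the exon (Cacna2d1-203, 7436 nucleotides) and of the form without it (Cacna2d1-202, 7415) differ by the length of the exon, 21. Another form with the exon, Cacna2d1-204, is shorter at 3412 nucleotides and had 4.57 and 2.48 TPM, so reads outside the exon also entered this division.

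**Figure D4:**
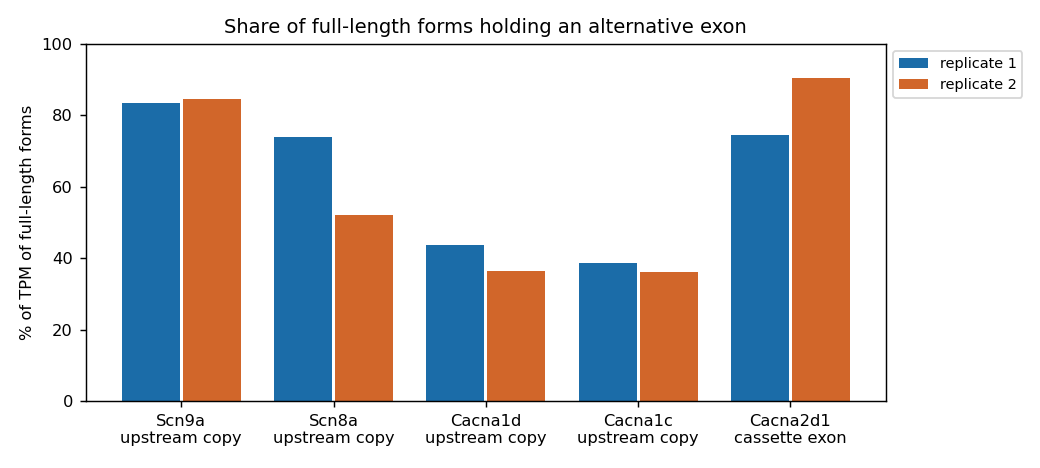
Share of the TPM of full-length forms (vertical axis, %) that lies in forms holding the upstream exon copy of 4 genes or the cassette exon of Cacna2d1, in replicate 1 and replicate 2. Scn9a stays between 83.6% and 84.6%, and Scn8a and Cacna2d1 differ most between the libraries.

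The cytoplasmic beta genes included the member with the highest level of all. Cacnb3, the beta subunit commonly paired with N-type channels, stood at 79.0 and 92.6 TPM, 68.7% ± 3.3 (SD, n = 2) of the class. Its main form, Cacnb3-202, had 84.8% and 83.4% of that, and Cacnb3-201, with another first coding exon, the rest. Cacnb1 (the skeletal muscle subunit, also present in brain) was at 33.5 and 31.5 TPM, with 27.7 and 26.4 in the form Cacnb1-201. Cacnb4 (mutated in the lethargic mouse) was at 4.88 and 4.92 TPM. Cacnb2 (the heart subunit) was listed at 1.65 and 1.37 TPM, but its full-length forms had 0.06 and 0.00 TPM and its highest transcript, Cacnb2-204, is a retained-intron transcript. The order Cacnb3, Cacnb1, Cacnb4, Cacnb2 held in both libraries.

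The gamma genes comprise 6 that encode AMPA receptor auxiliary subunits (TARPs), which have little part in calcium channels, and 2 that encode muscle-type calcium channel subunits. Cacng4 was far the highest, at 38.3 and 39.7 TPM, 70.0% ± 3.1 (SD, n = 2) of the class, nearly all of it in 1 form. Cacng5 was at 3.97 and 4.10 TPM, Cacng2 (stargazin) at 4.68 and 3.38 and Cacng3 at 2.81 and 2.60. Cacng7, at 2.17 and 1.56 TPM, and Cacng8, at 1.43 and 1.21, were lower. The muscle-type Cacng1 was at 1.49 and 1.22 TPM and Cacng6 at 1.59 and 1.25, from 29 to 45 counts per library. All 8 gamma genes passed 1 TPM, and the TARP genes held 95.03% ± 0.68 (SD, n = 2) of their TPM.

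Between the libraries, differences over 2-fold were rare among members and among all genes. The spread of ratios was wider for the members, which were also lower in level. Of the 33 members whose mean TPM was 1 or more, 0 were over 2-fold apart on the log2(TPM + 1) scale, where 0.0444% of 13517 protein-coding genes were over 2-fold higher in replicate 2 and 0.104% lower. With nothing added to TPM, 1 member was over 2-fold higher in replicate 2, Scn10a at 2.03-fold, against 0.222% of all genes, and 0 were over 2-fold lower, against 0.326%. The count of 16 members higher in replicate 2 (48.5%) stood beside 60.7% of all genes. The median log2 ratio was -0.02 for members and 0.04 for all genes, with an SD of 0.24 and 0.19. These 33 members had a median of 4.79 and 4.87 TPM in replicates 1 and 2, against 20.4 and 21.1 TPM for the 13517 genes. The SDs thus compare sets of unlike level, and no set of genes at the level of the members was compared. The deposited TPM intervals, whose level is not stated, lay apart for 6 of 33 members (18.2%, against 15.9% of all genes). In 5 of these replicate 2 was higher (15.2%, against 11.5%), and in 1 it was lower (3.03%, against 4.35%). The chi-square of counts per degree of freedom between the libraries was 7.35 over 17627 genes with a summed count of at least 20. They are thus not 1 library deposited again. This value cannot show that the pools are separate, and they are taken as 2 biological replicates on their labels.

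The 6 members were Scn10a, Scn7a, Scn9a, Scn3b, Cacnb3 and Cacng2. The log2 count ratio of replicate 2 over replicate 1, per gene count of the library and with its exact 95% binomial interval, was 0.99 (0.78 to 1.20) for Scn10a. It was 0.58 (0.38 to 0.78) for Scn7a and 0.55 (0.47 to 0.64) for Scn9a. These 3 sodium channel alpha genes, known from sensory neurons or glia of the periphery, had the largest count ratios of the 33 members whose mean TPM was 1 or more. Scn3b, at 0.16 (0.09 to 0.23), and Cacnb3, at 0.20 (0.14 to 0.26), were slightly higher in replicate 2, and Cacng2 lower at -0.50 (-0.70 to -0.30). The intervals cover counting error only, since the tables carry no molecular identifiers.

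Marker genes of other cell types differed between the libraries as well. Sensory ganglion markers were higher in replicate 2 in 8 of 8 cases, summing to 437 TPM in replicate 1 and 616 TPM in replicate 2, and neural crest glia markers were higher in 4 of 5, summing to 73.8 and 88.8 TPM. For comparison, 60.7% of all genes were higher in replicate 2. Among the ganglion markers, Prph was at 84.2 and 132 TPM, and Isl1, which is also on the motor neuron list, at 110 and 156 TPM. Motor neuron markers were lower in replicate 2 in 4 of 6 cases, although with Isl1 among them they summed to 174 and 208 TPM, and progenitor markers were lower in 5 of 8, summing to 3042 and 3131 TPM. Skeletal muscle markers were lower in replicate 2 in all 9 of the 9 that reached a mean of 1 TPM, summing to 349.6 and 250.8 TPM. The muscle-type Cacng1 and Cacng6 were also lower there, with overlapping intervals. Cacna1s, Cacnb1 and Scn4a, also known from skeletal muscle, were lower there by share of gene counts, by unlike amounts. Cacna1s had 58.6 and 60 counts in replicates 1 and 2, Cacnb1 1970 and 1934, and Scn4a 13 and 3. Their log2 count ratios were -0.06 (-0.60 to 0.48), -0.11 (-0.20 to -0.02) and -2.20 (-4.65 to -0.34). By full-length forms Cacna1s was instead higher in replicate 2, at 0.33 and 0.46 TPM. Heart markers were detected in 2 of 5 cases and summed to 14.6 and 8.77 TPM, a difference that lay mostly in Myl2 at 4.92 and 0.66 TPM, while Myl7 was at 4.20 and 4.54. Neuronal markers summed to 3016 and 3375 TPM, higher in replicate 2 in 9 of 10. The part of these cells in the channel values was not tested.

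**Figure D5:**
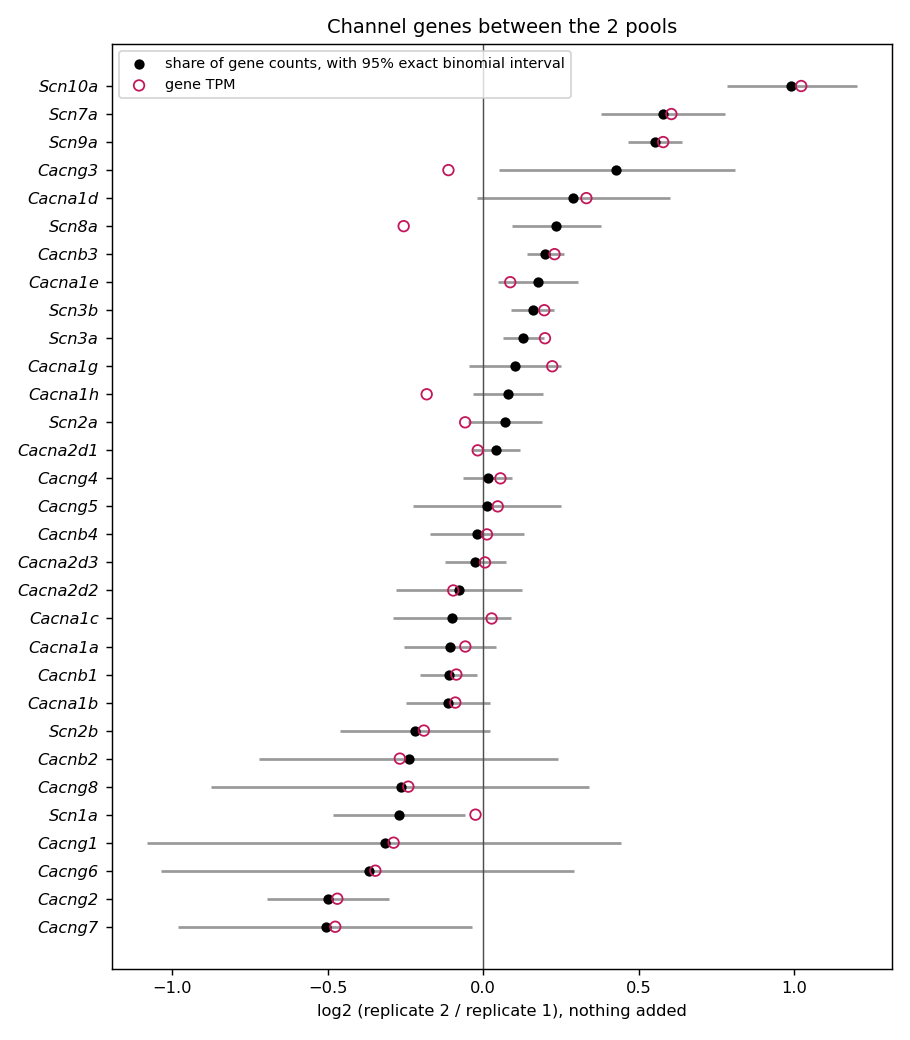
Log2 ratio of replicate 2 over replicate 1 for 31 members whose mean TPM was 1 or more, by share of gene counts (black, with exact 95% binomial intervals) and by gene TPM (open circles), with nothing added to either value. Scn10a, Scn7a and Scn9a lie at the top with both measures on the same side, and the open circles of Scn8a, Cacna1h and Cacng3 lie on the other side of 0 from their counts.

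For 8 of the 33 members the direction differed between TPM and the share of gene counts: Cacna1c, Cacna1h, Cacna2d1, Cacna2d3, Cacnb4, Cacng3, Scn2a and Scn8a. Scn8a had a log2 count ratio of 0.23 (0.09 to 0.38) and a log2(TPM + 1) ratio of -0.23, and its short form Scn8a-202 was lower in replicate 2 while its full-length forms were higher. Cacng3 had 101 and 144 counts, yet 2.81 and 2.60 TPM, with short forms listed in replicate 1 alone. Over 7 scalings, 13 members were higher in replicate 2 in each, 11 lower in each, and 9 changed direction. No direction is given for those 9.

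Leading transcripts were mostly shared. Of 26 detected members that have several transcripts, 23 had the same highest transcript in both (88.5%), against 90.6% of 9718 such genes. The exceptions were Cacna1e, Scn1a and Cacng5, in each of which the deposited intervals of the leading pair of forms overlapped in both libraries. In Cacng5 both forms encode the same reading frame length of 825 nucleotides, with 1.69 and 2.28 TPM in replicate 1 and 2.38 and 1.72 TPM in replicate 2 for Cacng5-202 and Cacng5-201.

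Genes that anchor, tune or substitute for these channels were read from lists. All 12 sodium channel partners were detected, among them Fgf13 (an intracellular modulator of sodium channels) at 79.7 and 109 TPM and Ank3 (ankyrin-G, the anchor of the axon initial segment) at 81.2 and 77.5 TPM. Sptbn4, the spectrin of the initial segment, was much lower at 1.03 and 1.11 TPM. Of the calcium channel partners 11 of 14 were detected, with Rem2 (a small GTPase that inhibits calcium channels) at 33.0 and 34.3 TPM and Cachd1 (an alpha2delta-like protein) at 21.5 and 25.6 TPM. Stac3, the adaptor of the muscle channel, was at 4.74 and 3.54 TPM. The sodium leak channel genes were all detected, 4 of 4, with Nalcn at 2.91 and 3.12 TPM, and so were 3 of 3 repressor genes. Rest, which silences neuronal genes such as Scn2a in non-neuronal cells, was at 17.0 and 15.7 TPM beside the neuronal channels.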

How the data were processed

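For each of the 2 libraries the authors deposited gene-level and transcript-level tables, made on mm10 with GENCODE annotation M4, per the deposited read-me. The program that made them is not named in those sources. Expected counts are the authors' estimated reads per gene, per the file headers, and TPM and FPKM are the authors' values corrected for length and depth. Each transcript's share of its gene is a deposited percent value. Credibility bounds, treated as score values, are those of the authors. Sums of gene counts were 31610805 and 33530172. Names and coordinates came from GENCODE M21 by identifier, which matched 42462 of 43346 genes and 220 of 223 member transcripts, 201 with the same length. A gene counted as detected at 1 TPM in both libraries, and ratios used log2(TPM + 1), which understates differences of low genes. Count ratios used rounded expected counts with exact binomial intervals (scipy 1.17.1). TMM (edgeR 4.0.16) and DESeq2 1.42.0 size factors, on rounded expected counts, served only as other scalings. No test was made, as there is 1 group. Members at 1 TPM or more were named, and others by count or where they mark another cell type. Some genes and sequences are not reported here, though they enter the counts and sums. Members and lists were chosen with earlier results of these data known, and full-length forms were defined after seeing the data. A ratio calculation was also tried on simulated data. No result of that trial is given here, and it is not evidence on the accuracy of the TPM ratios reported above.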

Additional observations from a re-analysis of the deposited data

How the results depend on the processing

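No paired analysis was possible because there is 1 group. At 5 TPM in both libraries 15 members were detected and 13 had the same leading transcript, since fewer genes pass; at 0.5 TPM or by other limits 31 to 39 were detected. Shares of expected counts, not corrected for length, gave Scn3a 39.9% of alpha, Cacna1a 13.7% and the P/Q-, N- and R-type genes 48.7% of alpha1, Cacnb3 62.1% of beta, Cacna2d1 56.0% of alpha2delta, TARP genes 98.0% of gamma and sodium channel genes 38.5% of the members. Full-length forms alone, an alternative chosen after seeing the data, gave 41.5% for Scn3a, 12.1% for Cacna1a, 40.6% for the P/Q-, N- and R-type genes, 73.0% for Cacnb3, 42.9% for Cacna2d1 and 28.4% for sodium channel genes. Posterior mean TPM gave 27.9% for Cacna1a, 49.2% for the P/Q-, N- and R-type genes and 40.4% for Cacna2d1. With genes under a mean of 1 TPM left out, these were 29.9%, 51.5% and 41.7%. The median log2 ratio of members lay between -0.02 and 0.04 under the alternatives run. With no pseudocount, an alternative chosen after seeing the data, 1 member (Scn10a) was over 2-fold apart, and 0 were under the others. Depth limits the members with few counts, such as Scn4a, Scn11a, Cacna1f and Cacna2d4, where 3 counts are the floor.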
